A study of Homo sapiens with 9 samples.

Results

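The IKK complex and the kinases that act on it or beside it were described here as 10 genes, 9 kinases and 1 adaptor, chosen by symbol: IKBKB, CHUK and IKBKG of the complex itself, the IKK-related kinases IKBKE and TBK1, the MAP3K genes MAP3K7, MAP3K8 and MAP3K14, and the RIP kinases RIPK1 and RIPK2. All 10 were among the 58735 genes of the deposited count table and all 10 had enough reads to be tested, with 73 to 1715 counts in any library. The cells were HEK293A, a flat-growing line derived from human embryonic kidney, with a knockout of p65, the RELA-encoded subunit of NF-kB. They were transfected with p65 2CS, with p65 WT or with an empty vector, and 24 h later every culture received TNFα at 20 ng/mL for 2 h, so that the knockout and the cytokine are shared by all 3 groups and the response to TNFα itself was not compared. The title of the series names p65 palmitoylation as its question, the labels do not spell out 2CS, and neither the promoter of the plasmids nor whether the knockout line is 1 clone is given in the sources used here. Each group had 3 libraries, numbered 7 to 9 for p65 2CS, 4 to 6 for p65 WT and 1 to 3 for vector.

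IKK phosphorylates the IkB proteins that hold NF-kB in the cytoplasm, which marks them for destruction and frees NF-kB to enter the nucleus. After TNF binds its receptor, RIPK1 and ubiquitin chains gather the kinase TAK1 (MAP3K7) and, through the adaptor NEMO (IKBKG), the catalytic kinases IKKβ (IKBKB) and IKKα (CHUK). IKKε (IKBKE) and TBK1 resemble the catalytic subunits and are best known for switching on interferon regulatory factors. MAP3K14 (NIK) drives the non-canonical pathway through IKKα, MAP3K8 (TPL2) feeds the ERK pathway, and RIPK2 couples the bacterial sensors NOD1 and NOD2 to IKK.

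Library totals lay between 15989601 and 25068515 counts, and 18195 genes were tested. RELA, the gene supplied, averaged 25518 ± 1382 CPM with p65 2CS, 9003 ± 943 CPM with p65 WT and 67.7 ± 1.61 CPM with vector (SD, n = 3 each), so the 2.83-fold difference in RELA transcript between the p65 forms cannot be told apart from the form itself (CPM, counts scaled to the TMM-adjusted library total). Of 8 markers expected in HEK293 cells 7 had reads, with a summed level of 922 to 948 CPM with p65 2CS, 933 to 960 with p65 WT and 1003 to 1038 with vector. STMN2 had no reads, and NEFL alone averaged 824, 842 and 899 CPM. Leukocytes also express IKBKE and MAP3K8, and the 8 leukocyte markers summed to 5.27 to 5.76, 5.07 to 6.06 and 3.9 to 4.15 CPM, with 1 count of PTPRC in all 9 libraries together. Among the leukocyte markers tested, CD14 was not called, and ITGAM was higher over vector, at 1.45 ± 0.341 CPM with p65 2CS, 2.24 ± 0.377 with p65 WT and 0.421 ± 0.067 with vector (edgeR adjusted p = 0.00018 and 3.7e-07). The 5 endothelial markers summed to 11.3 to 13.6, 34.6 to 40.7 and 8.38 to 8.71 CPM in the same order of groups, led by VWF and CDH5, with 11 counts of PECAM1 in all. The 6 fibroblast markers summed to 68.5 to 73.2, 83.8 to 89.3 and 74.2 to 81.2 CPM. The part of such genes in the results was not tested. In bulk RNA, fewer cells that express a gene and less of its RNA per cell cannot be told apart. Separate cultures behind the 3 libraries of a group are not stated in the labels, so the p-values cover the spread among these libraries, which may be technical.

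Promoter sequence is shown for IKBKE and MAP3K8, the members with the largest folds over vector with either p65 form, because NF-kB binds a short kappaB element in DNA. The windows run from 250 bases before to 50 bases after each RefSeq transcription start (GRCh38.p14), and 8 of the 10 members, all but IKBKB and RIPK2, had at least 1 of the 15 windows read. Capitals mark matches to the kappaB consensus on either strand, and where the element reads as a match on both strands it is marked once.

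IKBKE, chr1:206470226-206470525, plus strand: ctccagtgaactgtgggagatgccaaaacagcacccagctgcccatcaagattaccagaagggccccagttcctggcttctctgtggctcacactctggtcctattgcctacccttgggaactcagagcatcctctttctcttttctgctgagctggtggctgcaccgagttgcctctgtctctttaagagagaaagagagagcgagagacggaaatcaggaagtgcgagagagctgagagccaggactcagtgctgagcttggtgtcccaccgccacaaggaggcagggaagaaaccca
MAP3K8, upstream start, chr10:30433771-30434070, plus strand: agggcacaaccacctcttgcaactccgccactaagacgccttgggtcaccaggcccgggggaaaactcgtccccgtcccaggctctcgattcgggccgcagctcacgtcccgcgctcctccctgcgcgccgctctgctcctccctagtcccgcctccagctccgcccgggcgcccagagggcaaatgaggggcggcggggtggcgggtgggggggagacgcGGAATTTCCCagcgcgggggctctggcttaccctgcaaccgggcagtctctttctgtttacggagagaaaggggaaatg
MAP3K8, downstream start, chr10:30434396-30434695, plus strand: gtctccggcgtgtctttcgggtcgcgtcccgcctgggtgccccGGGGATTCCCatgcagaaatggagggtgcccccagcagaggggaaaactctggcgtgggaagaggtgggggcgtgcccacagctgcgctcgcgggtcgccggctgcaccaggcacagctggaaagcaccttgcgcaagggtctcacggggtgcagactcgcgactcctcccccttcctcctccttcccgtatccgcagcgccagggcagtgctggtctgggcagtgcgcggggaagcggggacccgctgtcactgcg

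All 3 MAP3K8 windows held a match, at 2 distinct positions: GGAATTTCCC at chr10:30433992-30434001, which begins at position -29 from the upstream start and which the second, overlapping window shares, and GGGGATTCCC at chr10:30434439-30434448, at position -207 from the downstream start. None of the 12 windows of the other 7 members matched, the IKBKE window included. Of all 35116 RefSeq windows 5.91% held a match. Counted by gene, 1 of the 8 members with a window had a match, and 7.09% of all 27305 genes with a window had one in any window. A match is a string of letters and no measured binding, and its lack in these windows says nothing of sites elsewhere.

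Between the 2 forms of p65, IKBKE was 3.6-fold lower with p65 2CS than with p65 WT, MAP3K8 1.38-fold lower and IKBKG 1.32-fold lower, while RIPK1 was 1.16-fold higher. The other 6 were not called. In all, 4 of 10 members were called by edgeR's quasi-likelihood test at an adjusted p under 0.05, over all genes tested, against a background of 31.2% of all genes called (13.4% higher and 17.9% lower). Against vector, p65 2CS gave 3 higher members (IKBKE, MAP3K8, RIPK2) and 1 lower (MAP3K14), with a background of 23.4% called (12.1% higher and 11.4% lower). With p65 WT 4 were higher (those 3 and IKBKG) and 4 lower (CHUK, MAP3K7, MAP3K14, RIPK1), with a background of 28.8% (16.4% higher and 12.5% lower). The balance of directions over all genes turned with the scaling. Between the forms edgeR called 2431 higher and 3254 lower after TMM scaling, and 3098 and 2820 when only library totals set the scale. For p65 2CS over vector the counts were 2193 and 2070, and 1955 and 2382 with totals. For p65 WT over vector they were 2976 and 2268, and 2561 and 3642 with totals. The median log2 fold of the 10 members was 0.04 between the forms, 0.08 for p65 2CS and 0.04 for p65 WT over vector, beside 0, 0 and -0.02 for all genes tested.

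**Figure D1:**
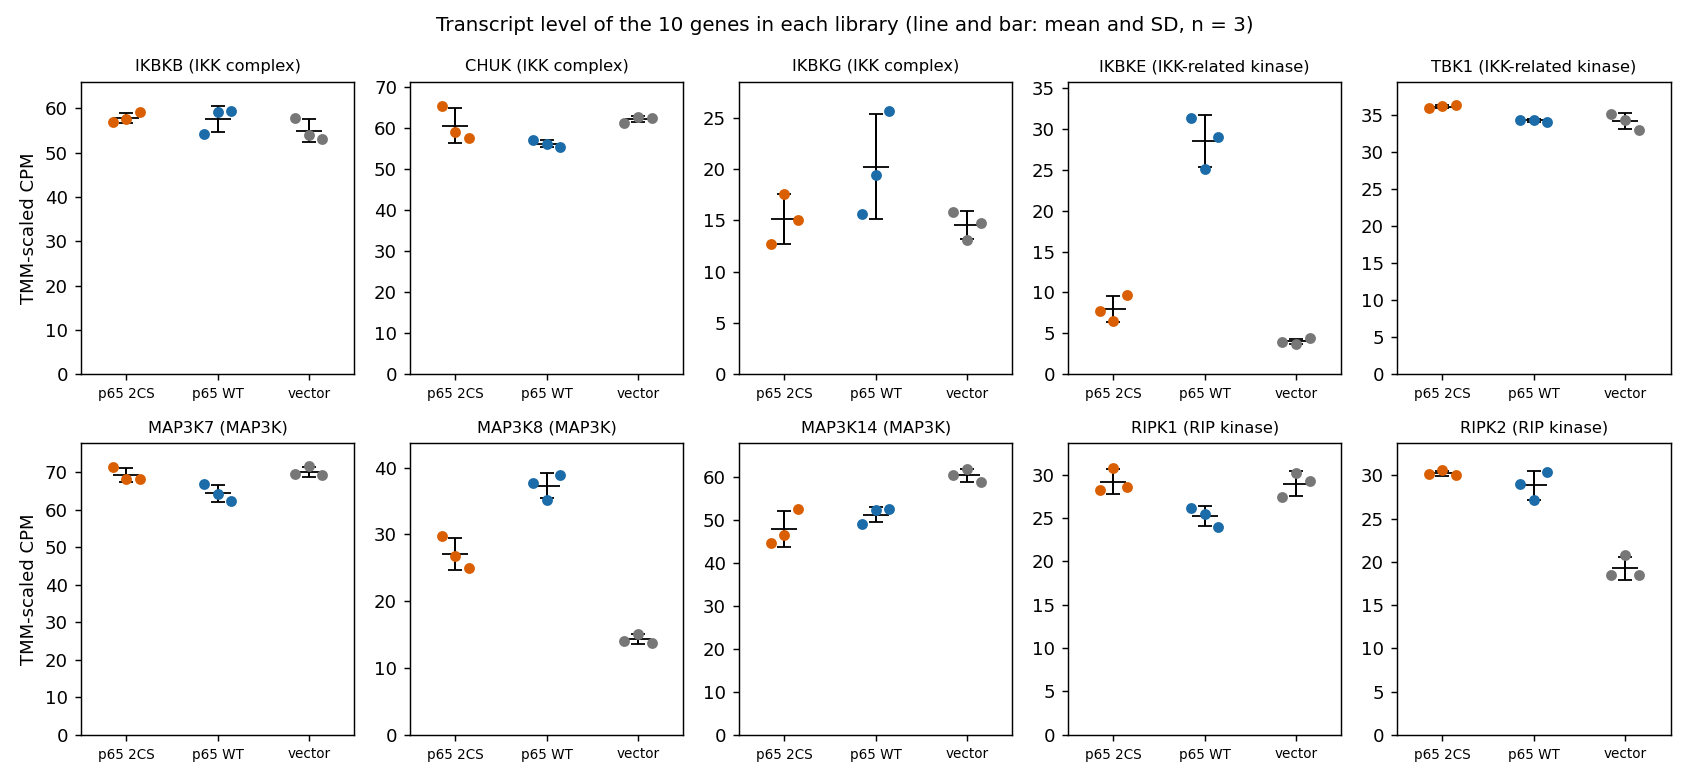
TMM-scaled CPM of each of the 10 genes in each of the 9 libraries, with the groups p65 2CS, p65 WT and vector from left to right. Points are libraries, and lines and bars are the mean and SD of 3. The p65 WT libraries of IKBKE sit between 25.1 and 31.4 CPM, above 6.52 to 9.7 with p65 2CS and 3.72 to 4.37 with vector, while TBK1 lies between 33 and 36.3 in all 9.

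Among the IKK-related kinases, IKBKE (ENSG00000263528, chromosome 1, 206470476 to 206496889, plus strand, GRCh38) carried the largest fold of the 10 members in each of the 3 comparisons. It had 7.74, 6.52 and 9.7 CPM in the p65 2CS libraries, 31.4, 25.1 and 29 CPM in the p65 WT libraries, and 3.9, 3.72 and 4.37 CPM in the vector libraries. The groups did not overlap: every p65 WT library stood above every p65 2CS library, and these above every vector library. The log2 fold was -1.85 ± 0.11 for p65 2CS against p65 WT (standard error; edgeR adjusted p = 2e-17). It was 0.99 ± 0.14 for p65 2CS against vector (edgeR adjusted p = 9.5e-07) and 2.84 ± 0.12 for p65 WT against vector (edgeR adjusted p = 3.3e-22). An antisense transcript, C1orf147, shares 4.12% of the IKBKE exon bases and had 142 counts over the 9 libraries, against 2071 for IKBKE, and the strand setting of the counting is not given in the sources used here.

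TBK1 (chromosome 12, 64451880 to 64502108, plus strand), the closest relative of IKKε, was not called in any comparison. It had 35.9, 36.2 and 36.3 CPM with p65 2CS, 34.4, 34.4 and 34.1 CPM with p65 WT and 35.1, 34.4 and 33 CPM with vector. The 95% interval of its log2 fold was -0.05 to 0.2 between the forms, -0.04 to 0.2 for p65 2CS against vector and -0.12 to 0.13 for p65 WT against vector. The upper bounds correspond to folds of 1.15, 1.15 and 1.09. The p65 2CS libraries lay just above all 6 others, and the ranges of p65 WT and vector overlapped. An antisense transcript, AC135279.3, shares 14.7% of the TBK1 exon bases and had 39 counts in all, against 5815 for TBK1.

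Scaled by gene length, so that levels of different genes can be set side by side, IKBKE lay at 2.11 ± 0.423 CPM per kb with p65 2CS, 7.51 ± 0.835 with p65 WT and 1.05 ± 0.0882 with vector. TBK1 lay at 7.59 ± 0.0428, 7.21 ± 0.0367 and 7.18 ± 0.226 CPM per kb in the same groups. In p65 WT cells the ranges of the pair overlapped, and in the other groups every library had less IKBKE than TBK1. IKBKE made up 21.3%, 18.5% and 25.1% of the summed per-length level of the pair in the p65 2CS libraries, 53.3%, 47.8% and 51.6% with p65 WT, and 12.2%, 12% and 14.3% with vector. The group means differed by -29.3 percentage points between p65 2CS and p65 WT, by 8.82 points between p65 2CS and vector and by 38.1 points between p65 WT and vector. Each of these gave an exact two-sided permutation p of 0.1, the smallest that 3 against 3 libraries allow, or 0.15 adjusted over the 6 comparisons of this kind. The share does not depend on how libraries are scaled.

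**Figure D2:**
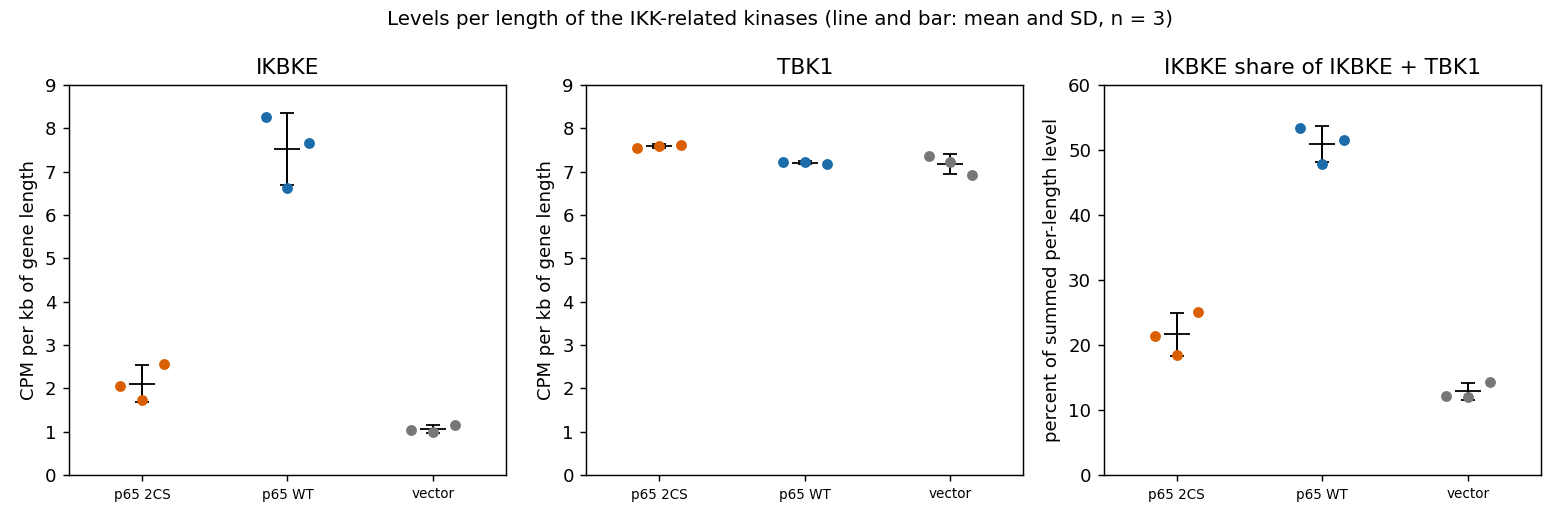
Per-length levels of IKBKE and TBK1 (CPM per kb of gene length) and the IKBKE share of their sum (percent) in each library, with p65 2CS, p65 WT and vector from left to right. Points are libraries, and lines and bars are the mean and SD of 3. The share averages 21.6% with p65 2CS, 50.9% with p65 WT and 12.8% with vector, and the groups do not overlap.

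Of the catalytic subunits of IKK itself, CHUK was called in 1 comparison and IKBKB in none. IKBKB (chromosome 8, 42271302 to 42332653, plus strand), the main kinase of IkB in the canonical pathway, had 57, 57.5 and 59.2 CPM with p65 2CS, 54.1, 59.1 and 59.5 CPM with p65 WT and 57.9, 53.9 and 53 CPM with vector. The ranges of the 3 groups overlapped. Its log2 fold had 95% intervals of -0.1 to 0.11 between the forms, -0.03 to 0.18 for p65 2CS against vector and -0.04 to 0.17 for p65 WT against vector.

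CHUK (chromosome 10, 100188298 to 100229619, minus strand), which also serves the non-canonical pathway, had 65.4, 59 and 57.5 CPM with p65 2CS, 57, 56.2 and 55.5 CPM with p65 WT and 61.3, 62.7 and 62.4 CPM with vector. With p65 WT it fell by 0.14 ± 0.05 on the log2 scale against vector (edgeR adjusted p = 0.028), and the groups did not overlap. The call was lost with no expression filter, in DESeq2, without RELA in the table, and when vector 2, vector 3, p65 WT 5 or p65 WT 6 was left out, with an adjusted p of up to 0.086. The log2 fold was 0.11 ± 0.05 for p65 2CS against p65 WT (edgeR adjusted p = 0.11, called at 0.038 with library totals alone and at 0.046 without p65 2CS replicate 9) and -0.04 ± 0.05 for p65 2CS against vector (edgeR adjusted p = 0.64).

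Per length, IKBKB made up 35%, 37.5% and 38.8% of the summed IKBKB and CHUK level with p65 2CS, 36.9%, 39.3% and 39.8% with p65 WT, and 36.8%, 34.6% and 34.4% with vector. The p65 WT and vector libraries did not overlap and differed by 3.43 percentage points (exact permutation p = 0.1, two-sided, the smallest possible, adjusted 0.15). The p65 2CS libraries differed from p65 WT by -1.6 points (exact permutation p = 0.4) and from vector by 1.83 points (exact permutation p = 0.2), with overlapping values. The deposited length of each member equals the union of its annotated exons, and IKBKB has 33 annotated transcripts and a length of 11241 bases against 6928 for CHUK. Which transcripts the cells used was not measured, and the level per length depends on it.

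IKBKG (chromosome X, 154541199 to 154565046, plus strand), which encodes the ubiquitin-binding adaptor NEMO, had 12.7, 17.6 and 15 CPM with p65 2CS, 15.6, 19.4 and 25.7 CPM with p65 WT and 15.8, 13.1 and 14.7 CPM with vector. The p65 WT libraries spread widely, with a coefficient of variation of 25.3%, and their lowest library lay among the values of the other groups. Replicate 6 of p65 WT was the highest of all 9. The log2 fold was -0.41 ± 0.12 for p65 2CS against p65 WT (edgeR adjusted p = 0.0056), 0.48 ± 0.12 for p65 WT against vector (edgeR adjusted p = 0.0014) and 0.07 ± 0.12 for p65 2CS against vector (edgeR adjusted p = 0.72).

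Without p65 WT replicate 6 the IKBKG folds were -0.19 ± 0.11 between the forms (edgeR adjusted p = 0.22) and 0.27 ± 0.11 over vector (edgeR adjusted p = 0.088). The first call was also lost without p65 2CS replicate 7, with a log2 fold of -0.3 ± 0.12 (edgeR adjusted p = 0.061). DESeq2 called neither (adjusted p = 0.14 and 0.083). IKBKG has a near-identical pseudogene copy, IKBKGP1, at 0.939 ± 0.176, 0.795 ± 0.38 and 0.853 ± 0.36 CPM with p65 2CS, p65 WT and vector. With the counts of the 2 loci summed the log2 folds were -0.38 ± 0.11 and 0.45 ± 0.11 (edgeR adjusted p = 0.0084 and 0.0018).

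**Figure D3:**
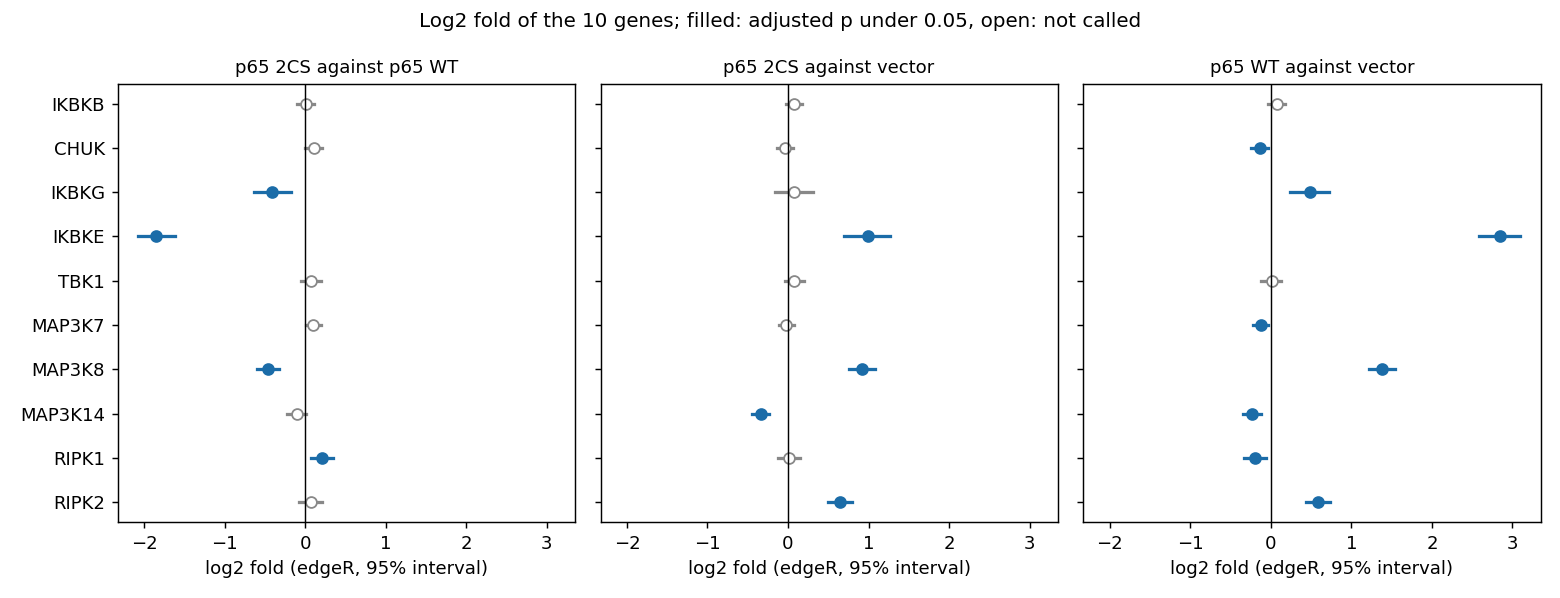
Log2 folds of the 10 genes from edgeR with 95% intervals, in panels for p65 2CS against p65 WT, p65 2CS against vector and p65 WT against vector. Filled points were called at an adjusted p under 0.05. IKBKE lies farthest from 0 in each panel, at -1.85, 0.99 and 2.84. For p65 2CS against vector its interval encloses that of MAP3K8. IKBKB and TBK1 are open in all 3.

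Of the MAP3K members, MAP3K8 (ENSG00000107968, chromosome 10, 30433937 to 30461833, plus strand) rose with either p65 form. It had 29.7, 26.7 and 24.9 CPM with p65 2CS, 37.7, 35.2 and 38.9 CPM with p65 WT and 14.1, 15.1 and 13.7 CPM with vector. The groups again did not overlap, in the same order as for IKBKE. The log2 fold was -0.46 ± 0.07 for p65 2CS against p65 WT (edgeR adjusted p = 1.3e-06), 0.92 ± 0.08 for p65 2CS against vector (edgeR adjusted p = 3.1e-12) and 1.38 ± 0.08 for p65 WT against vector (edgeR adjusted p = 1.4e-18). Over vector with p65 2CS, IKBKE and MAP3K8 stood at 1.98-fold and 1.89-fold. Between the forms their 95% intervals did not meet, at -2.07 to -1.62 for IKBKE and -0.6 to -0.32 for MAP3K8. The promoter windows printed above hold kappaB matches for MAP3K8 and none for IKBKE.

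MAP3K14 (chromosome 17, 45263119 to 45317145, minus strand), whose protein NIK is kept low in resting cells by a TRAF and cIAP ubiquitin ligase, fell with either form of p65. Its levels were 44.5, 46.4 and 52.5 CPM with p65 2CS, 49.1, 52.2 and 52.4 CPM with p65 WT and 60.4, 61.9 and 58.9 CPM with vector. All 6 p65 libraries lay below all 3 vector libraries, and the p65 forms overlapped each other. It fell by 0.34 ± 0.05 on the log2 scale with p65 2CS (edgeR adjusted p = 7.3e-06) and by 0.24 ± 0.06 with p65 WT (edgeR adjusted p = 0.00085), and both calls held in the alternatives run. Between the forms the fold was -0.1 ± 0.06 (edgeR adjusted p = 0.18), and without p65 2CS replicate 9 it was -0.17 with an adjusted p of 0.028. Its antisense neighbour MAP3K14-AS1 shares 12.3% of its exon bases and had 218 counts in all, against 8841 for MAP3K14.

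MAP3K7 (chromosome 6, 90513573 to 90587045, minus strand), the TAK1 kinase that activates IKK, had 71.5, 68.2 and 68.2 CPM with p65 2CS, 66.8, 64.3 and 62.3 CPM with p65 WT and 69.7, 71.6 and 69.2 CPM with vector. The p65 WT libraries were the lowest and did not overlap the others. With p65 WT it fell by 0.12 ± 0.05 on the log2 scale against vector (edgeR adjusted p = 0.041), a call lost with other size factors, no filter, DESeq2, the 2 groups alone, RELA left out, or on leaving out any 1 of the 3 vector libraries, p65 WT 5 or p65 WT 6. The log2 fold was 0.1 ± 0.05 between the forms (edgeR adjusted p = 0.087, and 0.026 with library totals alone) and -0.02 ± 0.04 for p65 2CS against vector (edgeR adjusted p = 0.81).

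Of the RIP kinases, RIPK2 rose with either form over vector and RIPK1 did not. RIPK2 (chromosome 8, 89757747 to 89791063, plus strand) had 30.1, 30.6 and 30 CPM with p65 2CS, 29, 27.1 and 30.4 CPM with p65 WT and 18.5, 20.8 and 18.5 CPM with vector. Either p65 form stood above every vector library, and the forms overlapped each other. RIPK2 rose by 0.65 ± 0.07 on the log2 scale with p65 2CS (1.57-fold; edgeR adjusted p = 3e-09) and by 0.58 ± 0.07 with p65 WT (1.49-fold; edgeR adjusted p = 2.8e-08). Between the forms its log2 fold was 0.07 ± 0.07 (edgeR adjusted p = 0.48), with a 95% interval of -0.07 to 0.21, which lies wholly above the intervals of IKBKE and MAP3K8.

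RIPK1 (chromosome 6, 3063991 to 3115187, plus strand), the scaffold kinase at the TNF receptor, had 28.2, 30.8 and 28.6 CPM with p65 2CS, 26.2, 25.5 and 24 CPM with p65 WT and 27.4, 30.2 and 29.3 CPM with vector. The p65 WT libraries were the 3 lowest, while p65 2CS and vector overlapped. With p65 WT it fell by 0.2 ± 0.07 against vector (edgeR adjusted p = 0.028), and with p65 2CS it was higher than with p65 WT by 0.21 ± 0.07 (edgeR adjusted p = 0.016). The fall was not called with no filter, in DESeq2, or when vector 2, vector 3 or p65 WT 6 was left out, with an adjusted p of up to 0.13. The difference between the forms was not called without p65 WT replicate 6 or p65 2CS replicate 8 (edgeR adjusted p = 0.088 and 0.11). An antisense transcript, AL031963.3, shares 5.63% of the RIPK1 exon bases and had 222 counts in all, against 4670 for RIPK1.

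In counts of non-overlap, 6 of the 10 members had separate ranges for p65 2CS and p65 WT, where 40.7% of all tested genes did. For p65 2CS and vector 5 members were separate, with 36.6% of all tested genes, and for p65 WT and vector 7, with 40.5%. Changes of at least 1.5-fold were rarer among the members: IKBKE between the forms, IKBKE, MAP3K8 and RIPK2 for p65 2CS over vector, and IKBKE and MAP3K8 for p65 WT over vector. RIPK2, at 1.57-fold with p65 2CS and 1.49-fold with p65 WT, fell on either side of this cut and was not called between the forms. The share of all tested genes at this cut was not counted. By size of log2 fold among the 18195 tested genes, RIPK2 ranked 1412 for p65 2CS over vector and 2489 for p65 WT over vector. Between the forms IKBKE ranked 537, and MAP3K8, at 1.38-fold and short of the cut, ranked 3015.

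The order of the members by level per length changed with the p65 form. In p65 2CS cells RIPK2 (9.7 CPM per kb), MAP3K7 (9.59), CHUK (8.76) and MAP3K14 (8.26) led, each overlapping the next, followed by TBK1 (7.59), MAP3K8 (7.54) and RIPK1 (6.9), whose ranges also ran into each other. IKBKB (5.15), IKBKG (4.28) and IKBKE (2.11) came last and apart. In p65 WT cells MAP3K8 stood first at 10.4 CPM per kb, above RIPK2 (9.24), MAP3K7 (8.92) and MAP3K14 (8.86), which overlapped in turn. CHUK (8.11), IKBKE (7.51) and TBK1 (7.21) overlapped in turn after them, and RIPK1 (5.97), IKBKG (5.73) and IKBKB (5.12) closed the order, each again overlapping the next. In vector cells MAP3K14 led at 10.4 CPM per kb, then MAP3K7 (9.71) and CHUK (8.97), each apart from the next. TBK1 (7.18), RIPK1 (6.85) and RIPK2 (6.18) overlapped in turn, IKBKB (4.89) stood alone, IKBKG (4.12) and MAP3K8 (3.97) overlapped, and IKBKE (1.05) was last. In level per length IKBKE stood above 38.8% of all tested genes with p65 2CS, 66.4% with p65 WT and 27% with vector.

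For the 3 members called in some comparison with an absolute log2 fold of 0.5 or more, the nearest patterns were sought among 14314 other tested protein-coding genes, as the smallest distance between pairs of log2 folds over vector (p65 2CS and p65 WT, 3 libraries each). Nearest to IKBKE was SLC2A6, a sugar transporter, with log2 folds of 0.98 for p65 2CS and 2.83 for p65 WT (distance 0.014). STARD8 (0.96 and 2.77) and the water channel AQP1 (1.07 and 2.86) followed. MAP3K8 was nearest to SLC25A25, a mitochondrial carrier (0.84 and 1.35, distance 0.089), RAPH1, an actin regulator (0.82 and 1.33), and CRYBG1 (0.86 and 1.48). RIPK2 was nearest to SHISA2 (0.68 and 0.59, distance 0.032), OTOF (0.66 and 0.55) and the thiamine transporter SLC19A3 (0.62 and 0.56). All of these folds share the vector libraries.

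Around the members, 70 genes in 7 lists were counted, of which 68 were tested. With p65 2CS against p65 WT 7 were higher and 16 lower (33.8% called, with 31.2% of all tested genes). With p65 2CS against vector 17 were higher and 6 lower (33.8%, with 23.4% of all), and with p65 WT against vector 20 were higher and 9 lower (42.6%, with 28.8% of all). The median log2 folds were -0.04, 0.03 and 0.04. RIPK3, a kinase of necroptosis, had 3 counts in all and MAP3K19 14 counts, and neither was tested.

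**Figure D4:**
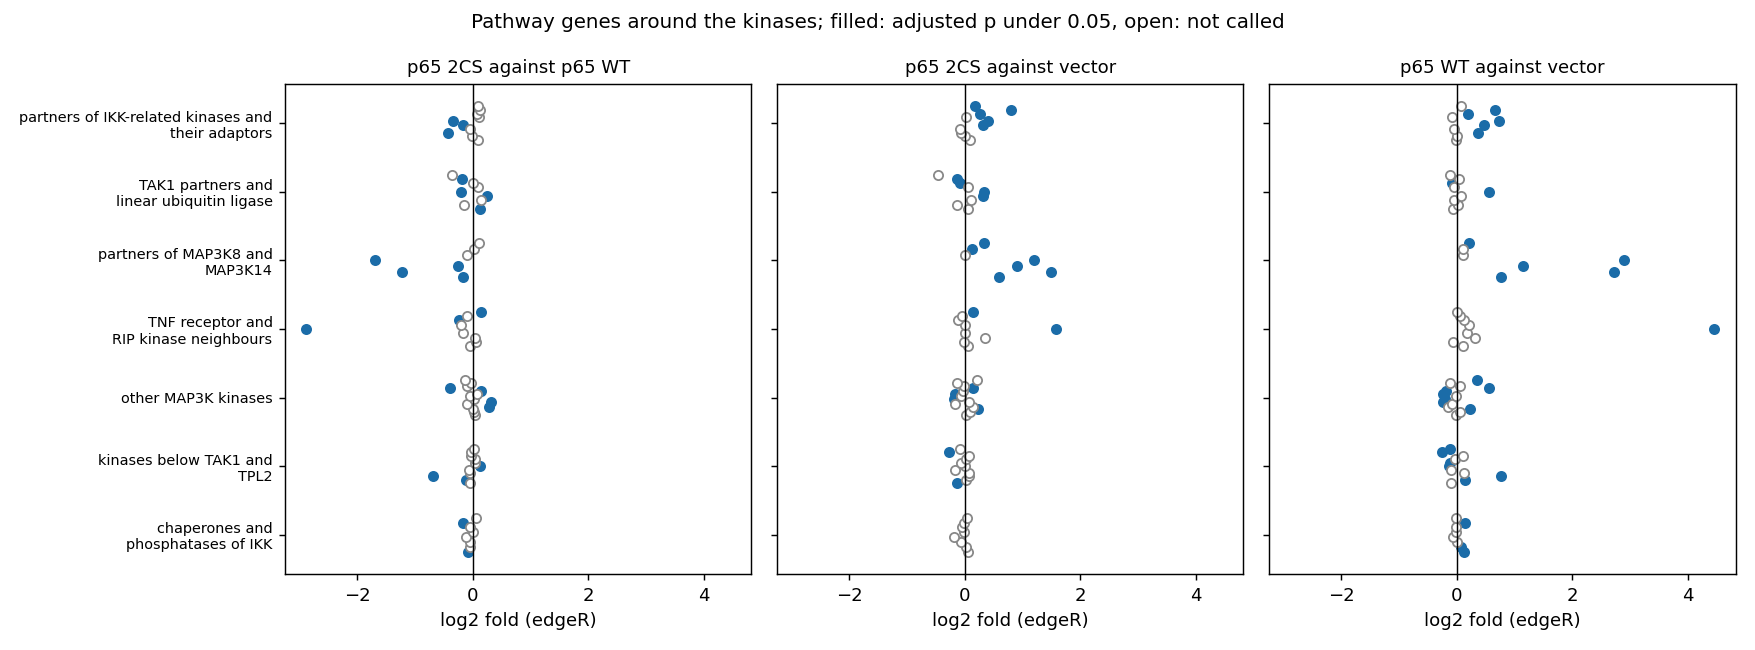
Log2 folds (edgeR) of the 68 tested pathway genes, 1 point per gene in rows by list, in panels for p65 2CS against p65 WT, p65 2CS against vector and p65 WT against vector. Filled points were called at an adjusted p under 0.05. The point farthest out is NOD2, at -2.88, 1.58 and 4.46.

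The partners of the IKK-related kinases and their adaptors gave 0 higher and 3 lower of 10 between the forms, and 5 higher and 0 lower with either form over vector. TANK, a scaffold that binds TBK1 and IKKε, had 16.7 ± 0.994 CPM with p65 2CS, 21.1 ± 2.48 with p65 WT and 12.6 ± 0.5 with vector, and all 3 of its differences were called. TICAM1, the TRIF adaptor of Toll-like receptors, had 29.6 ± 1.87, 27 ± 1.94 and 17 ± 0.505 CPM, higher with either form and not called between them (edgeR adjusted p = 0.18). OPTN, a ubiquitin-binding adaptor of TBK1, had 37.4 ± 0.284, 41.8 ± 1.76 and 30 ± 1 CPM, and rose with either form over vector. Between the forms OPTN was called lower (edgeR adjusted p = 0.034), a call lost with library totals, no filter, DESeq2 and 4 of the 9 libraries left out in turn (p65 WT 4 and each p65 2CS library), with an adjusted p of up to 0.17. IRF3, the interferon factor that TBK1 phosphorylates, had 49.8 ± 2.53, 67 ± 6.22 and 52.4 ± 1.34 CPM and was not called for p65 2CS over vector (edgeR adjusted p = 0.38). It rose with p65 WT over vector (edgeR adjusted p = 2.2e-06), and its log2 fold between the forms was -0.43 ± 0.06 (edgeR adjusted p = 5.4e-08).

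Among 9 TAK1 partners and ubiquitin ligase genes 2 were higher and 2 lower between the forms, 2 higher and 2 lower with p65 2CS over vector, and 1 higher and 1 lower with p65 WT. TAB2, which ties TAK1 to ubiquitin chains, had 121 ± 2.05 CPM with p65 2CS, 140 ± 1.52 with p65 WT and 95.5 ± 0.638 with vector, all called. TAB1, the activating partner of TAK1, had 67.6 ± 1.19, 57.1 ± 3.25 and 54.5 ± 1.05 CPM, higher with p65 2CS than in either other group. UBE2N, which builds the chains, was lower with p65 2CS (66.7 ± 1.94 CPM) than with p65 WT (75.8 ± 7.32) or vector (73.8 ± 1.31; edgeR adjusted p = 0.0046 and 0.032). The UBE2N call against vector was lost in DESeq2 and without any 1 of the 3 vector libraries, p65 2CS 7 or p65 2CS 8, with an adjusted p of up to 0.13, and the call between the forms without p65 WT 4 (edgeR adjusted p = 0.077). RBCK1, of the linear ubiquitin ligase, had 106 ± 2.24, 97.5 ± 1.16 and 102 ± 2.24 CPM and was called higher between the forms (edgeR adjusted p = 0.011).

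The 7 partners of MAP3K8 and MAP3K14 gave 0 higher and 4 lower between the forms, 6 higher and 0 lower with p65 2CS over vector, and 5 higher and 0 lower with p65 WT. NFKB1, whose p105 product binds and stabilises TPL2, had 105 ± 2.34 CPM with p65 2CS, 124 ± 4.67 with p65 WT and 56.3 ± 1.47 with vector. NFKB2, whose p100 product is cut after NIK acts, had 113 ± 3.25, 365 ± 21.7 and 49.4 ± 0.723 CPM. BIRC2 and BIRC3, the cIAP ligases, had 56.4 ± 1.64 and 6.51 ± 0.894 CPM with p65 2CS, 63.5 ± 3.18 and 15.1 ± 1.63 with p65 WT, and 37.3 ± 1.75 and 2.28 ± 0.15 with vector. All 3 differences of these 4 genes were called, and of these calls the one of BIRC2 between the forms was lost without p65 WT 4 (edgeR adjusted p = 0.065).

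Of 9 tested neighbours at the TNF receptor and of the RIP kinases, 1 was higher and 2 lower between the forms, 2 were higher with p65 2CS over vector and 1 with p65 WT, none lower. NOD2, the sensor upstream of RIPK2, had 1.8 ± 0.0572 CPM with p65 2CS, 13.2 ± 2.61 with p65 WT and 0.597 ± 0.155 with vector, a log2 fold of -2.88 ± 0.18 between the forms. RIPK2 itself was not called there, as given above. TNFRSF1A, the TNF receptor, had 48.1 ± 3.4, 56.2 ± 2.75 and 51.8 ± 1.29 CPM, lower with p65 2CS than with p65 WT (edgeR adjusted p = 0.0011). XIAP, which ubiquitinates RIPK2, had 60.1 ± 2.55, 54.5 ± 5.77 and 54.1 ± 0.665 CPM and was higher with p65 2CS than in either other group (edgeR adjusted p = 0.046 and 0.036). The XIAP call between the forms was lost in DESeq2, in 2-group fits, with RELA left out and without vector 2, p65 WT 4 or 6, or p65 2CS 8 or 9, with an adjusted p of up to 0.25. Its call over vector was lost with library totals, in DESeq2 and without any 1 of the 3 vector libraries, p65 2CS 8 or p65 2CS 9, with an adjusted p of up to 0.13. MLKL, the effector of necroptosis, had 3.94 ± 0.23, 3.83 ± 0.271 and 3.1 ± 0.768 CPM and was not called.

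Other MAP3K kinases gave 3 higher and 1 lower of 14 tested between the forms, 2 and 2 with p65 2CS over vector, and 3 and 4 with p65 WT. MAP3K4 had 44.7 ± 1.68 CPM with p65 2CS, 59.2 ± 1.62 with p65 WT and 40.2 ± 1.6 with vector, all called. The MAP3K4 call for p65 2CS over vector (edgeR adjusted p = 0.037) was lost with library totals, no filter and without vector 2, vector 3, p65 2CS 7 or p65 2CS 8, with an adjusted p of up to 0.17. MAP3K11 was higher with either form (67.5 ± 2.57 and 67.2 ± 0.317 CPM, against 57.5 ± 0.493 with vector), and MAP3K21 lower with either (70.1 ± 2.16 and 66.5 ± 1.63 CPM, against 78.3 ± 2.01). MAP3K15 had 34.9 ± 1.3, 27.9 ± 3.09 and 33.1 ± 0.815 CPM, lower with p65 WT than in either other group, and its call over vector was lost without p65 WT 5 (edgeR adjusted p = 0.11). The 11 kinases below TAK1 and TPL2 gave 1 higher and 2 lower between the forms, 0 and 2 with p65 2CS, and 2 and 4 with p65 WT. MAP2K3, an activator of p38, had 76.1 ± 0.95, 123 ± 5.97 and 72 ± 1.12 CPM, with a log2 fold of -0.69 ± 0.04 between the forms. MAPK8 (JNK1) was lower with either form (55.7 ± 0.186 and 56.6 ± 1.5 CPM, against 67.7 ± 4.1 with vector), and MAP2K2 had 285 ± 0.802, 310 ± 11.4 and 280 ± 2.12 CPM.

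The 8 chaperones and phosphatases of IKK gave 0 higher and 2 lower between the forms, 0 and 0 with p65 2CS over vector, and 3 and 0 with p65 WT. For p65 2CS over vector 1 of the 8, HSP90AB1, had an unadjusted p under 0.05 in edgeR (0.014), and DESeq2 called 0. Library totals alone and leaving out p65 WT 6 each called HSP90AB1 lower (edgeR adjusted p = 0.014 and 0.042). Between the forms the 2 lower calls were 4 with RELA left out, and 1 with library totals or without p65 WT 6, p65 2CS 8 or p65 2CS 9. CDC37, the chaperone that loads kinases onto HSP90, had 274 ± 3.32 CPM with p65 2CS, 290 ± 3.52 with p65 WT and 264 ± 8.86 with vector. It rose with p65 WT over vector, and its call between the forms (edgeR adjusted p = 0.023) is the one lost in those 4 settings. PPP4C had 164 ± 1.92, 183 ± 8.64 and 166 ± 4.73 CPM. HSP90AA1 had 1053 ± 18.5, 1089 ± 11 and 1031 ± 1.96 CPM and was called higher with p65 WT over vector (log2 fold 0.08 ± 0.02), though not with library totals (edgeR adjusted p = 0.22). HSP90AB1 had 1113 ± 17.3, 1156 ± 11.5 and 1159 ± 15.3 CPM. In the main edgeR fit, of all 9 libraries with TMM scaling and RELA kept, HSP90AB1 was not called in any comparison. Between the forms it was called lower with RELA left out (edgeR adjusted p = 0.013) and in DESeq2 (DESeq2 adjusted p = 0.031).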

How the data were processed

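RNA was sequenced from 9 HEK293A libraries, 3 per group, and the groups were taken from the labels. The authors deposited whole-number counts per gene, not normalized, with a gene length and position for each gene. HISAT2 2.0.5 is named in the submitters' processing notes, and neither the counting tool nor its strand setting is named there or in the labels. All 58735 gene identifiers, positions and symbols matched GENCODE release 29 on GRCh38. Library totals gave 0.0397 to 0.0634 CPM per count.

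From the counts, 18195 genes passed edgeR's filterByExpr, and 1 edgeR fit (4.0.16, R 4.3.3, limma 3.58.1) of the 9 libraries with TMM scaling gave quasi-likelihood F tests, Benjamini-Hochberg adjusted over the whole tested set and called at 0.05. Standard errors are those implied by F. CPM values are TMM-scaled, and CPM per kb divides them by the deposited length. Shares within a library were compared by exact permutation tests, adjusted over 6 comparisons. The fit was also run on simulated counts, drawn from the vector levels with changes placed in p65 WT alone. These lacked the high RELA counts of the p65 libraries, and the outcome is not reported here. Promoter sequences are from RefSeq (GRCh38.p14).

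All 10 members are named. From each pathway list up to 4 genes with the smallest p over the 3 comparisons are named, and for each member called with an absolute log2 fold of 0.5 or more the 3 genes with the nearest pattern; some results these rules would name are not reported here. The members and lists were chosen with earlier results of these data known. Alternatives were RLE factors, library totals, no filter, DESeq2 1.42.0, 2-group fits, RELA left out, and each library left out. Adding the IKBKGP1 counts to IKBKG was chosen after seeing the data. Within groups, chi-square divided by its degrees of freedom was 1.88 to 2.53 between pairs of libraries, above counting noise, and no columns were identical.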

Additional observations from a re-analysis of the deposited data

How the results depend on the processing

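IKBKE and MAP3K8 in all 3 comparisons, and RIPK2 and MAP3K14 over vector, kept their direction and their call in every alternative run. Over the members' log2 folds, leaving out 1 library kept the direction and the side of the threshold 251 times, lost a call 17 times and added one 2 times, and the other settings gave 196, 12 and 2, with no called fold reversed. Members called higher for p65 2CS against p65 WT numbered 1, against 3 with library totals alone and 0 to 2 with a library left out. Members called lower for p65 WT against vector numbered 4, against 1 with no filter, 1 in DESeq2, 2 without RELA in the table and 1 to 4 with a library left out. Of the 10 members only CHUK, MAP3K7, RIPK1 and IKBKG lost calls, as given beside each, and the causes were not tested. Of 672 counts of pathway-list genes under the alternatives 72 moved by over 1.5 times, by at most 3 genes. The difference in IKBKE share between p65 WT and vector was 34.8 points without division by gene length, against 38.1 with it. No paired analysis was possible because the groups share no replicate numbers. With 3 libraries a group the permutation tests cannot give a p under 0.1.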
